A study of Mus musculus with 2 samples.

Results

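The cells described here are the neutrophils highest in the granule transcripts Camp, Ngp and Ltf in 1 of the 2 droplet libraries of the series. A neutrophil was a barcode (the tag of 1 droplet, read as 1 cell) with at least 10% of its gene UMIs (unique molecular identifiers, each counted as 1 RNA molecule) from S100a8 and S100a9 and fewer than 5 UMIs from the progenitor genes Elane, Mpo, Prtn3 and Ms4a3 together. The score of a cell was the percent of its gene UMIs from Camp, Ngp and Ltf. Of 2407 neutrophils with a hashtag call, the 10% with the highest score were taken, which gave 241 members among 9591 barcodes of the library and 14421 of the series. The score chose the members, so the levels of Camp, Ngp and Ltf, and every difference between members and other neutrophils, are given as a description. The 5 lowest scores among the members were 4.26, 4.25, 4.23, 4.22 and 4.14%, and the 5 highest outside were 4.13, 4.11, 4.10, 4.09 and 4.08%, so no gap set the members apart.

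The study examined host immune cells after hepatic arterial infusion of CBL0137, a curaxin that loosens the binding of DNA to histones. Female BALB/cAnNCrl mice of 7 to 8 weeks carried liver metastases of 4T1, a mouse mammary carcinoma line injected through the spleen, of which part was then removed. All groups therefore bore tumours and had an altered spleen, and no tumour-free mice were among the samples used here. Mice received vehicle or CBL0137 at a low or a high dose over 15 min, and the cells of 2 mice per group were pooled 5 days later. What these doses were is unknown here. Cells taken with CD11b beads are described in the methods and leukocytes from a density gradient in the labels. The library with the members held 79585807 gene UMIs (median 4673 per barcode) and the other library 35672251 (median 3368.5).

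Neutrophils mature in the bone marrow through a fixed order of granule programs. Progenitors make the primary granule proteases, myelocytes and metamyelocytes make the secondary (specific) granule proteins, and band and segmented cells then make gelatinase and the receptors used in blood and tissue. Camp encodes the antimicrobial peptide cathelicidin, Ngp a cystatin-like granule protein, Ltf the iron-binding lactoferrin and Lcn2 the siderophore-binding lipocalin-2, all of which are stored in specific granules. C/EBP epsilon, the product of Cebpe, is the transcription factor known to drive this program. Tumours and inflammation can bring such immature neutrophils out of the marrow, and in tumour-bearing mice they belong to the cells called granulocytic myeloid-derived suppressor cells.

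The groups of the cells rest on 3 antibody oligonucleotides, shown here because each group label is read from the UMIs of its 15-base barcode. A cell was given a group where 1 hashtag had at least 10 UMIs and at least 3 times the UMIs of the next.
A0301, vehicle: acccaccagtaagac
A0305, low dose: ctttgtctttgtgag
A0310, high dose: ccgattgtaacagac

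The 3 score genes lie on mouse chromosome 9 of the GRCm38 genome, Camp at chr9:109847379-109849617 (minus strand), Ngp at chr9:110419747-110423012 (plus strand) and Ltf at chr9:111019271-111042767 (plus strand), and Lcn2 lies on chromosome 2 at chr2:32384633-32388252 (minus strand). The bases before their starts are shown because the members were chosen on the joint level of these genes. The sequences come from RefSeq (GRCm38.p6) and end at the first base of an exon of the gene in GENCODE release M21; no stretch of Lcn2 is left by this rule. Capitals mark matches on either strand to a C/EBP motif, TTNNGCAA, or a PU.1 motif, GAGGAA.
Camp, chr9:109849618-109849706, minus strand: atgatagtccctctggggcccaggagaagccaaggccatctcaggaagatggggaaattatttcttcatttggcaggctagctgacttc
Ngp, chr9:110419558-110419746, plus strand: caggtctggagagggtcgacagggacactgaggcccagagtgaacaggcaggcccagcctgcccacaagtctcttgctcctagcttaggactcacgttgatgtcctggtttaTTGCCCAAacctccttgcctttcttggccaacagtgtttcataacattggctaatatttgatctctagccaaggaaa
Ltf, chr9:111019042-111019270, plus strand: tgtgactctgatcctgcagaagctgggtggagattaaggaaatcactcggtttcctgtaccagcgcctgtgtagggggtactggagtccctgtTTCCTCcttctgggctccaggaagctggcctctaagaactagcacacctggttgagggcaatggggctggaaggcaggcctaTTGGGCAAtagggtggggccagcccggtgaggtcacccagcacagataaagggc
In the full 250-base windows before the RefSeq starts, Ngp had 2 matches to the C/EBP motif (1 of them past the end of the stretch shown), Ltf and Lcn2 had 1 each and Camp had 0. Ltf and Lcn2 each had 1 match to the PU.1 motif, and Camp and Ngp had 0. The C/EBP motif was present in 9.56% and the PU.1 motif in 23.3% of 32851 promoter windows of the same length, and a match is a description of the letters only.

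The organ of the library needs to be read with care. It is labelled liver, while its file is named for the spleen. The hepatocyte genes Alb, Apoa1, Ttr, Serpina1a and Fgb summed to 0.0689 CPM (UMIs per 1000000 gene UMIs) over all barcodes of the library labelled liver, against 99.0 CPM in the library labelled spleen. Kupffer cell genes summed to 10.0 and 460 CPM and keratin and Epcam transcripts, markers of the tumour cells, to 5.07 and 350 CPM. The markers thus went against the organ labels, and the libraries are called by their labels throughout. The libraries shared 15 barcode sequences, of which 1 belonged to a member.

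Markers outside the rule were read for the name of immature neutrophils, since S100a8 and S100a9, which took 40.7% of the members' UMIs, and the capped progenitor genes do not bear on it. Lcn2, a marker the rule did not use, was detected in all 241 cells at 19159 CPM (95% counting interval 19042 to 19277), but it was also present in neutrophils of every lower score. Of the capped genes, 6 UMIs of Elane, 7 of Mpo, 217 of Prtn3 and 97 of Ms4a3 were found among all members, with a Prtn3 UMI in 125 and an Ms4a3 UMI in 70 of the 241 cells. Ctsg, a primary granule protease gene outside the cap, had 4 UMIs. Genes of later stages spanned a wide range of levels in the members, with Ifitm2 at 3115 CPM, Stfa2 at 2224, Retnlg at 1937, the gelatinase gene Mmp9 at 560, the chemokine receptor gene Cxcr2 at 246 and Csf3r, the receptor for G-CSF, at 98.4 CPM. Member cells were deep, with a median of 22694 UMIs in the vehicle, 20152 in the low dose and 25010.5 in the high dose group, a minimum of 2507 over all members and a median mitochondrial share of 0.980% (highest 3.78%).

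Markers of other cells were counted in the members because droplets can carry free RNA or a neighbour. All 5 hepatocyte genes and all 4 eosinophil and basophil genes were at 0, as were Clec4f and Vsig4 of Kupffer cells and Krt8, Krt18 and Krt19 of tumour cells. The T cell list held 503 UMIs over its 5 genes, of which Cd3d gave 481, and summed to 76.2 CPM in the vehicle, 108 in the low dose and 98.6 in the high dose group. The B cell list held 100 UMIs, 70 of them from Ighm, and summed to 18.0, 17.7 and 26.7 CPM. The part of these transcripts in the values below was not tested, except where members that carry them are left out. The monocyte list held 633 UMIs, 471 of them from Ly6c2. It summed to 109 CPM in the vehicle, 138 in the low dose and 53.4 in the high dose group. Lyz2 and Cd14, given below, moved in the same order, and the part of monocyte transcripts in them was not tested. The natural killer list held 64 UMIs, the erythroid list 221, the megakaryocyte list 6, the Kupffer list 8, the endothelial list 33 and the tumour list 3. The dendritic cell list held 453 UMIs, of which 412 were in vehicle members, and 1 vehicle cell held 309 of them. The macrophage list held 190 UMIs, with 130 in vehicle, 60 in low dose and 0 in high dose members, and its most abundant gene was C1qa with 69.

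Among neutrophils under the progenitor cap, the members made up a similar part in each group. Of 1089 vehicle neutrophils 100 were members, or 9.18% (exact Clopper-Pearson interval 7.53 to 11.1%), of 1140 low dose neutrophils 123, or 10.8% (9.05 to 12.7%), and of 178 high dose neutrophils 18, or 10.1% (6.10 to 15.5%). The 3 intervals overlapped, so a difference in this share was not detectable at these cell numbers. The cap, a fixed number of UMIs at any depth, left out 176 further vehicle, 137 low dose and 59 high dose barcodes. These shares do not cover those barcodes. The number of members relative to all cells was lower at the high dose. They were 2.98% of the group's barcodes in the vehicle, 3.61% in the low dose and 0.840% (0.499 to 1.32%) in the high dose group. Neutrophils as a whole were 32.4, 33.5 and 8.31% of these barcodes. These values come from 1 pool of cells per group, so intervals here and below cover counting error only and no p-value was computed.

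The share at the top of the score hid a difference below it. The median score of all neutrophils was 0.0322% in the vehicle, 0.0411% in the low dose and 0.831% in the high dose group. No Camp, Ngp or Ltf UMI at all was found in 34.8% of vehicle and 28.9% of low dose neutrophils, but in 1.69% of high dose neutrophils. With each cell thinned to 1000 UMIs, which leaves out 6 vehicle and 5 low dose cells, these shares were 54.7% (51.6 to 57.7%), 50.2% (47.3 to 53.2%) and 10.7% (6.55 to 16.2%). Among T cells of the same library thinned in the same way, 91.3, 90.9 and 93.6% had none, so that 8.68, 9.06 and 6.44% of cells that should lack these genes had such a UMI. When all neutrophils were cut into 10 bins of equal size by score, with the members as bin 10, bins 1 to 5 held 56.0% of the neutrophils in the vehicle, 51.2% at the low dose (48.3 to 54.2%) and 6.18% at the high dose (3.12 to 10.8%). Bins 6 to 9, just below the members, held 34.8, 38.0 and 83.7% (77.4 to 88.8%). Depth moved with these values, since the other neutrophils had a median of 5208 UMIs in the vehicle, 5830 in the low dose and 16931 in the high dose group. With the same thinning before scoring, the share of members was 9.14% in the vehicle, 10.8% at the low and 10.1% at the high dose. The cap was still read from the UMIs before thinning. Where the highest 5% were taken instead, 4 of 178 high dose neutrophils (2.25%) were members, beside 4.41% of vehicle and 5.96% of low dose neutrophils. With the highest 20% the values were 30.3% at the high dose, 18.1% in the vehicle and 20.2% at the low dose, so the order of the groups depends on where the score is cut.

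**Figure D1:**
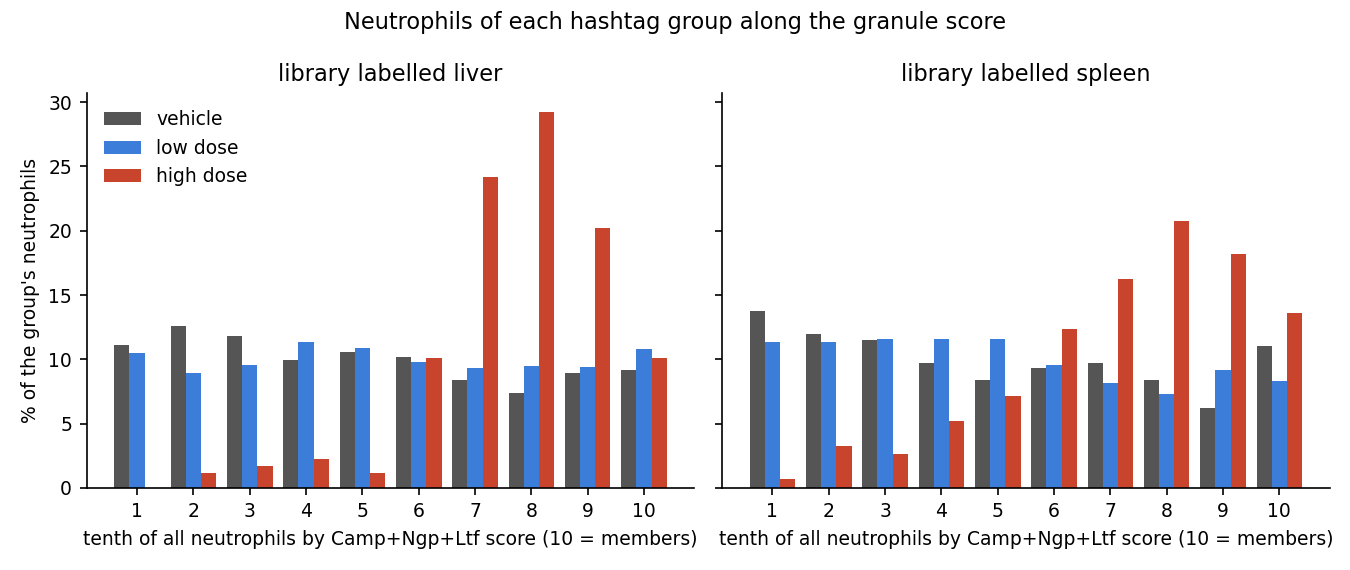
Percent of each hashtag group's neutrophils (y axis) in each of 10 bins of the Camp, Ngp and Ltf score (x axis, 10 is the members) in both libraries. High dose neutrophils (red) gather in bins 6 to 9, which hold 83.7% of them in the library labelled liver, with 67.5% in the one labelled spleen, while the groups are close to each other in bin 10.

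Levels along the score are given from the members downwards. Camp was at 19342 CPM in the members, 4906 in bin 9, 975 in bin 8 and 162 in bin 7. Lcn2 declined far less, with 19159 CPM in the members, 13679 in bin 9, 8704 in bin 7 and 3306 in bin 1. Cebpe was at 280 CPM in the members, 119 in bin 9 and 38.5 in bin 8. Chil3, a chitinase-like secreted protein of immature neutrophils, was at 1513, 626 and 353 CPM in the same bins, and Cybb, the catalytic subunit of the NADPH oxidase, at 1423, 918 and 496 CPM. Both are named in the list of secondary granule genes, of which 7 of 15 were at least 2-fold higher in the members than in the other neutrophils, beside 5.15% of the 8013 genes tested. A 2-fold ratio in either direction was found for 25.4% of these genes and a lower level for 20.2%.

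Mmp8 and Retnlg were highest below the members. Mmp8, the neutrophil collagenase, was at 308 CPM in the members, 1649 in bin 7 and 910 in bin 1. Retnlg, a resistin-like protein of maturing neutrophils, was at 1937 CPM in the members, 22723 in bin 6 and 11672 in bin 1. Ly6g, the surface marker of mouse neutrophils, was level over bins 8, 9 and 10, at 1063, 1065 and 1104 CPM, and lower in bin 1, at 107 CPM. Il1b, the gene of interleukin-1 beta, was at 44.6 CPM in the members and 2673 in bin 1. Of 28 mature neutrophil genes tested 22 were at least 2-fold lower in the members and 1 was at least 2-fold higher, with a median log2 ratio of -2.12 beside -0.33 over all genes. Of 12 interferon genes 10 were at least 2-fold lower (median -3.15), and of 13 cell death genes 8 were lower (median -1.02).

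**Figure D2:**
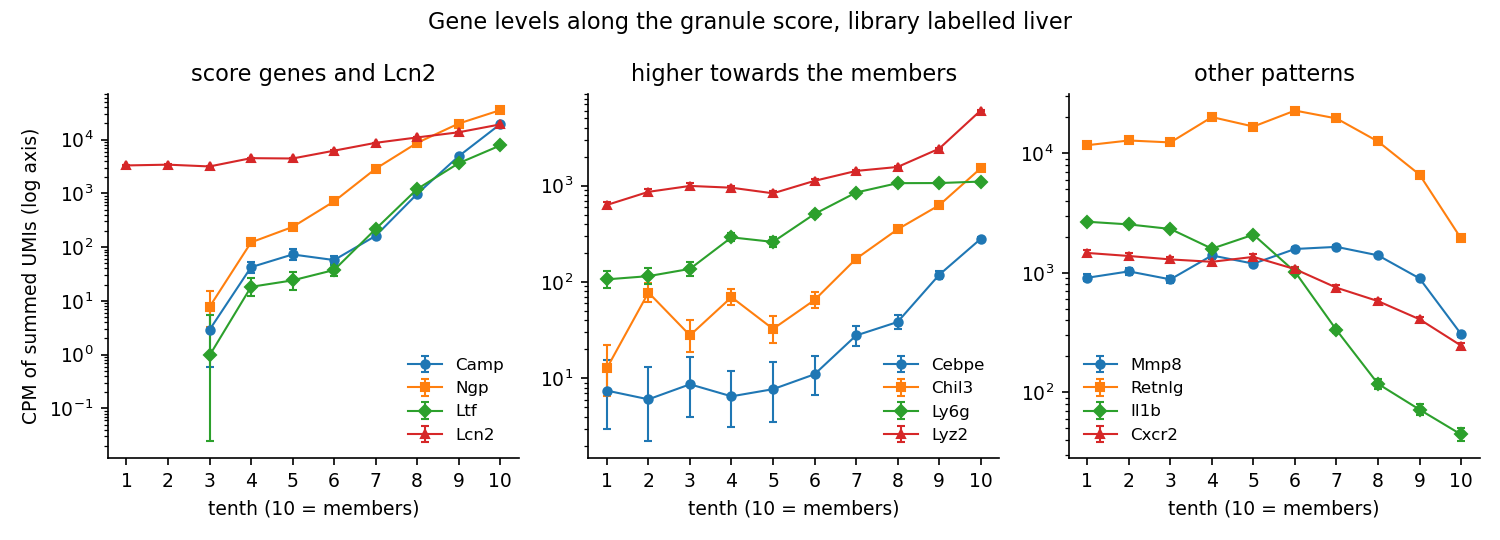
CPM of summed UMIs (y axis, log scale) in each bin of the score (x axis) for 12 genes of the library labelled liver, with bars for the 95% counting intervals; values of 0 are not drawn. Lcn2, Cebpe, Chil3 and Lyz2 are highest in bin 10, Mmp8 is highest in bin 7, and Il1b is highest in bin 1 and lowest in bin 10.

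The 10 genes outside the rule with the largest ratio of members to other neutrophils were Zmpste24, Ube2c, Cebpe, Chil3, Lta4h, Lyz2, Orm1, Cybb, Serpinb1a and Ceacam1. Zmpste24, a membrane protease that processes prelamin A, was at 102 CPM in the members and 12.1 in the other neutrophils (log2 ratio 3.07). Lta4h, which makes leukotriene B4, was at 94.7 and 19.5 CPM (2.28), and Lyz2, lysozyme, at 6031 and 1494 CPM (2.01). Serpinb1a, an inhibitor of neutrophil elastase, was at 1390 and 411 CPM (1.76). Ube2c, a ubiquitin-conjugating enzyme of mitosis, was at 119 and 14.8 CPM (3.00). Ly6g depended on the group, since its log2 ratio of members to other neutrophils was 0.65 over all cells but -0.66 within the high dose group.

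Cell cycle transcripts took a median of 0.197% of the UMIs per member, with a lowest value of 0.0510%. The other neutrophils were close to this, with a median of 0.152% and a lowest value of 0%. The cell cycle list includes Hmgb2 and H2afz, which were at 1807 and 882 CPM in vehicle members, where Mki67 was at 53.5 CPM. A low share therefore does not show that a cell was cycling. Genes of the cell cycle list made up at least 1% of the UMIs in 27 of 241 members (11.2%, 7.51 to 15.9%), with 9 of 100 in the vehicle, 16 of 123 in the low dose and 2 of 18 in the high dose group. Among the other neutrophils 9 of 2166 cells (0.416%) passed the same value. The cut at 1% divides a range, and 44 members lay between 0.5 and 1.5%. The 27 members over it had Camp at 18748 CPM beside 19421 in the other 214, and Cebpe at 510 beside 250 and Chil3 at 2703 beside 1354. Ngp was at 39286 beside 34727 CPM and Ltf at 7548 beside 7800. Lower levels were found for Retnlg, at 383 beside 2145 CPM, Mmp8, at 127 beside 332, and Ly6g, at 527 beside 1181.

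Barcodes kept out only by the cap were close to the members in their granule genes. There were 372 barcodes with a hashtag call that met the S100a8 and S100a9 condition but had 5 or more UMIs of the progenitor genes, 176 in the vehicle, 137 in the low dose and 59 in the high dose group. Their median score was 6.09%, above the 5.93% of the members, and 293 of them (78.8%) were over the members' threshold. Camp was at 19281 CPM, Ngp at 34010, Ltf at 4961 and Lcn2 at 17144 in these barcodes. The cap fixes that they held more of the primary granule genes, with Prtn3, proteinase 3, at 3131 CPM and Elane, neutrophil elastase, at 1186 CPM. Cell cycle genes, which the rule did not use, reached 1% of the UMIs in 209 of them (56.2%). Without the cap, 278 cells would be members and 107 of the 241 would remain.

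The groups were compared within the members, where the rule constrains the summed level of Camp, Ngp and Ltf. A 2-fold ratio was reached by 110 of the 3077 genes that had 50 or more UMIs in the groups compared (3.57%), 30 higher (0.975%) and 80 lower (2.6%) at the high dose, and for low dose against vehicle by 40 of 4336 genes (0.923%), 28 higher (0.646%) and 12 lower (0.277%). These counts depend on the UMI minimum, with 522 and 255 genes past 2-fold at a minimum of 20 UMIs and 9 and 4 at 200. Camp was at 17885 CPM (17712 to 18060) in vehicle, 21772 (21593 to 21952) in low dose and 13215 (12894 to 13542) in high dose members. Single cells spanned 730 to 48434 CPM in the vehicle, with a median of 15849, and 7072 to 21839 in the high dose group, with a median of 12605.5, so the groups overlapped. Ngp was at 34327, 36717 and 31910 CPM, Ltf at 8164, 7441 and 7686 CPM and Lcn2 at 19145, 19401 and 17939 CPM in the same order. High against vehicle the log2 ratios were -0.44 for Camp, -0.11 for Ngp, -0.09 for Ltf and -0.09 for Lcn2. The level of Camp thus differed most among the 3 score genes, and the median score of the members was 5.88% in the vehicle, 6.29% in the low dose and 5.26% in the high dose group.

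Some genes of neighbouring stages were also lower at the high dose, while others were higher. Ly6g was at 1003 CPM (962 to 1045) in vehicle, 1288 in low dose and 596 (529 to 668) in high dose members, a log2 ratio of -0.75 (-0.93 to -0.57) for high dose against vehicle. Cebpe was at 255, 321 and 179 CPM (log2 ratio -0.51, -0.86 to -0.19), and the ratio was 0.31 without the progenitor cap. Lyz2 was at 5925, 6378 and 4683 CPM (-0.34), and this ratio ran from -1.44 to -0.26 over the alternatives. Retnlg was at 1728, 2266 and 1167 CPM, and 1 cell gave 51.6% of its high dose UMIs, so that the log2 ratio of -0.57 was -1.36 without the richest cell of each group. Fcnb, a ficolin of early neutrophils, was at 80.2, 84.0 and 37.0 CPM (-1.12, -1.90 to -0.42), and the ratio was -0.043 without the progenitor cap. In Ly6g, Cebpe, Lyz2, Retnlg and Fcnb the low dose level was above the vehicle and the high dose level below it. Over the list of other secondary granule genes, 1 of 14 (Olfm4) was at least 2-fold higher at the high dose and 0 were 2-fold lower, with a median log2 ratio of -0.08 beside 0.04 over all genes tested. Higher at the high dose, short of 2-fold, were Chil3 (log2 ratio 0.51, 0.39 to 0.62), Stfa2 (0.50, 0.42 to 0.59) and Stfa3 (0.64, 0.54 to 0.75). All of these reversed under some alternatives.

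**Figure D3:**
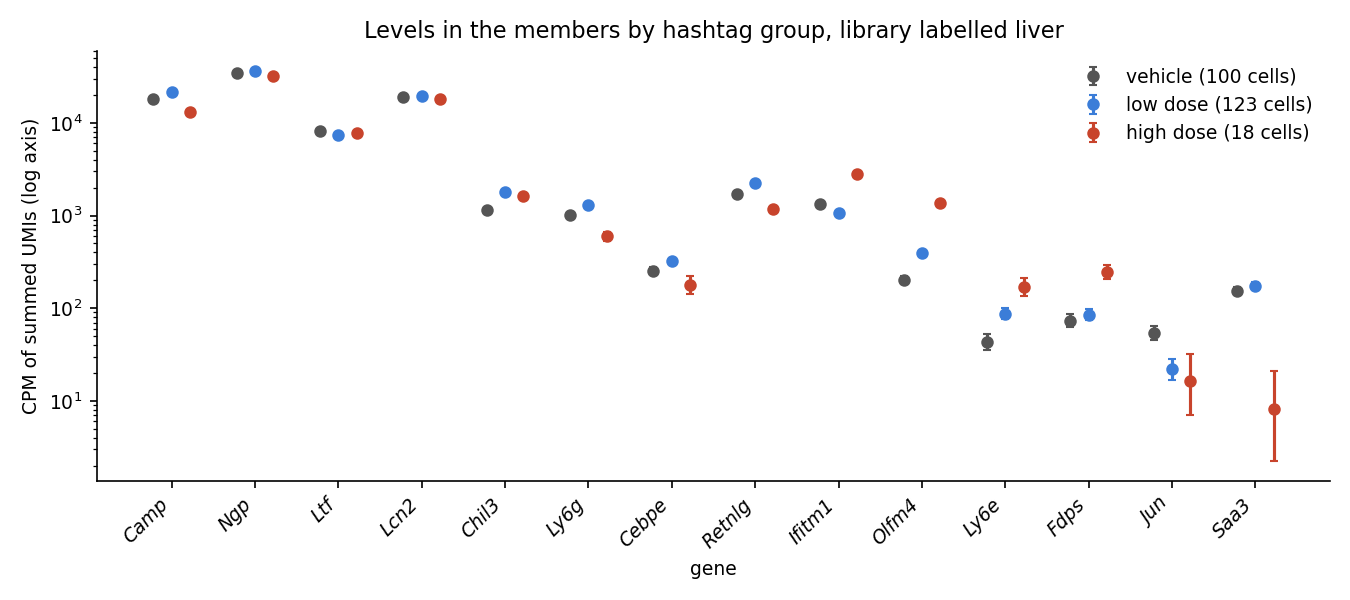
CPM of summed UMIs (y axis, log scale) of 14 genes (x axis) in the members of each hashtag group of the library labelled liver, with 95% counting intervals. Camp, Ly6g, Cebpe and Retnlg are lowest in the 18 high dose cells, while Ifitm1, Olfm4, Ly6e and Fdps are highest there.

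Olfm4 had the largest ratio among the genes named for high dose against vehicle. It encodes olfactomedin-4, a specific granule protein that only a subset of neutrophils makes. Its level was 201 CPM (183 to 220) in vehicle, 394 (370 to 419) in low dose and 1351 (1250 to 1459) in high dose members, a log2 ratio of 2.75 (2.58 to 2.93) for high dose and 0.97 (0.81 to 1.14) for low dose against vehicle. The low dose ratio was 0.34 without the progenitor cap and 6.07 for the highest 5% of the score. Nearly all UMIs lay in few cells. At least 10 UMIs were found in 4 of 100 vehicle cells (89 to 121 UMIs each), in 13 of 123 low dose cells (12 to 127 UMIs) and in 5 of 18 high dose cells (66 to 204 UMIs), and these cells held 446 of 458, 1014 of 1022 and 658 of 658 UMIs. As shares of cells these are 4.00% (1.10 to 9.93%), 10.6% (5.75 to 17.4%) and 27.8% (9.69 to 53.5%), and the intervals of vehicle and high dose meet. The difference therefore rests on how many of 18 cells were positive, and the ratio was 1.27 for the highest 20% of the score. With cells thinned to 1000 UMIs, 5.00, 9.76 and 27.8% had an Olfm4 UMI, beside 0.192% of 2606 T cells of the same library (median 4945.5 UMIs before thinning). In the other neutrophils Olfm4 was at 230 CPM in the vehicle, 352 in the low dose and 604 in the high dose group.

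Ly6e, Fdps and Ifitm1 had their highest median per cell in the high dose group. Ly6e, a GPI-anchored surface protein that interferon can induce, was at 43.4 CPM (35.3 to 52.8) in vehicle, 87.1 (76.1 to 99.2) in low dose and 170 (136 to 211) in high dose members, with a median of 1, 0 and 4.5 UMIs per cell and log2 ratios of 1.97 (1.54 to 2.41) at the high and 1.01 (0.66 to 1.36) at the low dose. Fdps, farnesyl diphosphate synthase of the mevalonate pathway, was at 73.6, 85.2 and 246 CPM, with a median of 1, 1 and 5.5 UMIs per cell and log2 ratios of 1.74 (1.39 to 2.09) and 0.21 (-0.09 to 0.51). Ifitm1, an interferon-induced membrane protein, was at 1317, 1059 and 2839 CPM, with a median of 9.5, 2 and 58 UMIs per cell and log2 ratios of 1.11 (1.01 to 1.20) and -0.31 (-0.39 to -0.24). The single cells of the groups overlapped in all 3 genes. With cells thinned to 1000 UMIs, a Ly6e UMI was found in 3.00, 5.69 and 22.2% (6.41 to 47.6%) of members, beside 6.67, 6.08 and 10.1% of T cells in the same order of groups. For Fdps these shares were 7%, 8.13% and 11.1% (1.38 to 34.7%) of members, beside 3.57, 5.30 and 3.50% of T cells, so a difference in Fdps was not detectable in this way. For Ifitm1 they were 41%, 25.2% and 72.2% (46.5 to 90.3%), beside 6.82, 5.30 and 4.07% of T cells. Whether T cells make these 3 transcripts themselves was not tested, so their shares are not a background level here. Leaving out the richest cell of each group gave 1.96 for Ly6e, 1.42 for Fdps and 0.93 for Ifitm1. In the other neutrophils the log2 ratio of high dose to vehicle was -0.19 (-0.42 to 0.02) for Ly6e, 1.48 (1.28 to 1.69) for Fdps and 0.12 (0.10 to 0.14) for Ifitm1. Ifitm1 was lower with a higher score, at 17407 CPM in bin 6, 4151 in bin 9 and 1331 in the members. The lower median score of the high dose members moved with it and its part was not tested. Among the highest 5% of the score, with 4 high dose cells, the log2 ratio of Ifitm1 was -0.56.

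**Figure D4:**
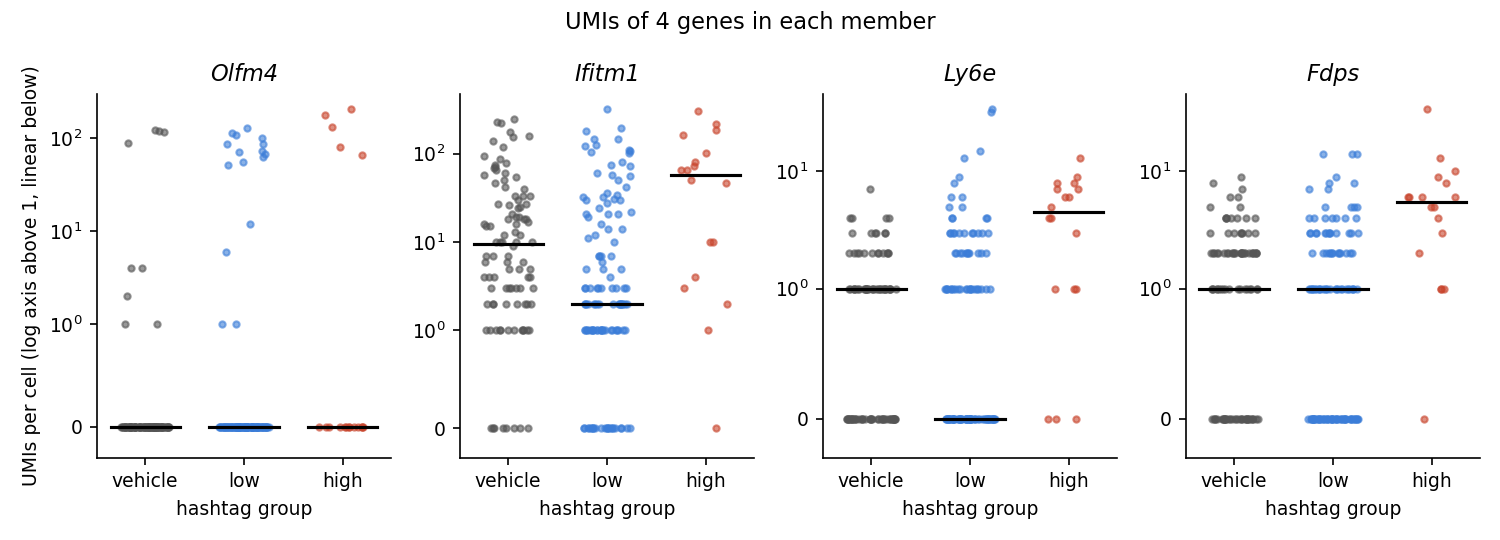
UMIs per cell (y axis, log scale above 1 and linear below) of Olfm4, Ifitm1, Ly6e and Fdps in each member of the library labelled liver by hashtag group (x axis), with a black line at the median. Olfm4 is at 0 in most cells of every group and at 66 to 204 UMIs in 5 high dose cells, while the medians of Ifitm1, Ly6e and Fdps are highest in the high dose group at 58, 4.5 and 5.5 UMIs.

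The ratios of Hist1h1b, Mki67, Cd74 and H2-Aa moved when few cells were left out. Hist1h1b, a replication-dependent H1 histone, was at 60.9 CPM in vehicle and 175 in high dose members, but 1 cell held 98.8% of the high dose UMIs and the log2 ratio of 1.52 became -4.00 without the richest cell of each group. Mki67, a marker of cycling cells, was at 53.5, 96.0 and 115 CPM, and its high dose ratio of 1.11 became -0.17 in the same way. Cd74 and H2-Aa, the invariant chain and an MHC class II chain of antigen-presenting cells, had high dose ratios of -3.86 and -2.90, and 1 vehicle cell held 75.7% and 73.6% of their vehicle UMIs. Without the richest cell of each group these ratios were -2.69 and -1.86, on 4 high dose UMIs of each gene before any cell was left out. Without the 6 members that carried at least 10 UMIs of macrophage, dendritic or B cell markers the ratio of Cd74 was 0.073. Git2, Pttg1, Nme2 and AI839979 were the others among the 10 highest ratios, at 1.11, 1.09, 1.06 and 1.05, and at 0.83, 1.03, 1.09 and 0.98 without the richest cell of each group. Nme2, nucleoside diphosphate kinase B, was at 74.0 CPM in vehicle, 41.6 in low dose and 154 in high dose members, so the doses lay on opposite sides of the vehicle.

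Among genes with at least 100 UMIs, Saa3 and Jun had the lowest ratios beside Cd74 and H2-Aa. Saa3, an acute-phase serum amyloid A, was at 154 CPM in vehicle, 173 in low dose and 8.22 in high dose members (log2 ratio -4.23, -6.11 to -2.86). The members with a Saa3 UMI were 22% in the vehicle, 26.02% at the low and 22.2% at the high dose, so the share of cells with the transcript did not follow the level. With cells thinned to 1000 UMIs these shares were 6%, 3.25% and 5.56%, beside 3.57, 2.65 and 1.61% of T cells in the same order of groups. The level was uneven, since 1 cell gave 43.6% of the vehicle and 1 cell 33.9% of the low dose UMIs, and the ratio was -3.75 without the richest cell of each group and -0.53 without the progenitor cap. Saa3 was more abundant in the other neutrophils, at 4280, 2465 and 536 CPM, where the log2 ratio of high dose to vehicle was -3.00. Jun, a subunit of the AP-1 transcription factor, was at 54.3 CPM in vehicle, 21.97 in low dose and 16.4 in high dose members (log2 ratios -1.73 at the high and -1.31 at the low dose), and its high dose ratio was 0.10 for the highest 5% of the score. In the other neutrophils Jun was at 356, 153 and 98.6 CPM. With cells thinned to 1000 UMIs, a Jun UMI was found in 6%, 3.25% and 0% (0 to 18.5%) of members. For T cells of the same groups these shares were 10.2, 8.40 and 4.73%, above those of the members and also lower with dose. Whether these are the T cells' own transcripts or free RNA was not tested, so they are not a background level for Jun. Fos, the partner of Jun, was at 93.3, 75.5 and 53.4 CPM in the members. Il1b was low in all members, at 27.2, 67.1 and 6.16 CPM, with 3 UMIs in the high dose cells. Cd14, a co-receptor for lipopolysaccharide, was at 57.8 CPM in vehicle, 75.5 in low dose and 24.6 in high dose members (log2 ratio -1.23, -2.22 to -0.38, at the high dose), on 132, 196 and 12 UMIs. The ratio was -0.66 without the progenitor cap and -0.78 for the highest 20% of the score, both short of 2-fold, and -0.72 (-1.50 to 0.02) in the library labelled spleen. Chst12, Ppp4r3b, Rtf1, Mindy1 and Dynlt1f had high dose ratios between -1.27 and -1.14, each on 12 or fewer high dose UMIs.

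Most ribosomal protein and mitochondrial genes were below the vehicle in low dose members, none of them 2-fold. Of 87 ribosomal protein genes tested 8 were above and 79 below the vehicle, with a median log2 ratio of -0.33 beside 0.04 over all genes, of which 55.6% were above. The median was -0.081 without the progenitor cap. Ribosomal protein genes took 6.14% of the UMIs in vehicle and 4.87% in low dose members. All 12 mitochondrial genes tested were lower at the low dose (median -0.27). Neither was limited to the members, since in the other neutrophils 4 of 90 ribosomal protein genes were above the vehicle (median -0.36) and 0 of 13 mitochondrial genes (median -0.33). At the high dose 60 of 82 ribosomal protein genes were above the vehicle in the members, with a median of 0.08, and 5 of 12 mitochondrial genes, with a median of -0.02, beside 55.02% of all genes above and a median of 0.04. Without the richest cell of each gene in each group these were 50 of 82 (0.032) and 3 of 12 (-0.14).

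Of 18 cell cycle genes tested at the low dose 17 were above the vehicle, with a median log2 ratio of 0.59, and 3 were at least 2-fold higher, beside 0.646% of all genes. Ccnb1, cyclin B1, was at 14.0 CPM in vehicle and 30.8 in low dose members (log2 ratio 1.14, 0.53 to 1.78), Cdc20, an activator of the anaphase-promoting complex, at 19.3 and 40.5 CPM (1.07, 0.55 to 1.61), and Rrm2, a subunit of ribonucleotide reductase, at 11.4 and 24.3 CPM (1.09, 0.41 to 1.81). These UMIs came from few cells, with a Ccnb1 UMI in 11 of 100 vehicle and 21 of 123 low dose members, and the shares of members with at least 1% cell cycle UMIs, 9% (4.20 to 16.4%) and 13.01% (7.62 to 20.3%), had overlapping intervals. The median of the list at the low dose was 0.046 for the highest 20% of the score. At the high dose 12 of 16 cell cycle genes were above the vehicle (median 0.39) and 1, Mki67, was 2-fold higher, a ratio that became -0.17 without the richest cell of each group. Without the richest cell of each gene in each group, 6 of the 16 genes were above the vehicle and the median was -0.11, and without the 1 member of each group with the most cell cycle UMIs these values were 6 and -0.076. This high dose median ranged from -0.24 to 1.67 over the alternatives and was below 0 in 4 of 15, so no direction is given for it. In the other neutrophils at the low dose 0 of 17 were above the vehicle (median -0.99).

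Il1b had the largest ratio at the low dose among the genes named, with 27.2 CPM in vehicle and 67.1 in low dose members (log2 ratio 1.30, 0.88 to 1.75), on 62 and 174 UMIs. Ifi27l2a, an interferon-stimulated gene, was at 14.0 and 30.4 CPM (1.12), Cdca8, a subunit of the chromosomal passenger complex, at 31.5 and 63.6 CPM (1.01) and Cenpf, a kinetochore protein, at 39.0 and 75.5 CPM (0.95). Chil3 was at 1147 CPM (1103 to 1191) in vehicle, 1814 (1762 to 1867) in low dose and 1629 (1517 to 1746) in high dose members, log2 ratios of 0.66 and 0.51. The high dose value did not hold when cells were thinned before scoring, where it was -0.038. Orm1, the acute-phase orosomucoid, was at 104, 167 and 78.0 CPM, and Mmp8 at 255, 372 and 214 CPM. Besides Cd74, H2-Aa and Jun, the lowest ratios at the low dose were those of Trf (transferrin) at -0.90, Eif3i at -0.86, Nme2 at -0.83, Plin2 (a lipid droplet protein) at -0.82, Gpr65 at -0.81, F5 and Rtraf at -0.70. Tes and Crot were higher, at 0.96 and 0.95.

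Among the other lists, mature neutrophil genes and genes of marrow egress held most of the 2-fold lower levels at the high dose, on few UMIs. No gene of the p53 target, FACT and histone chaperone, cell death, interferon or heat shock lists reached 2-fold at either dose, with 3, 4, 7, 2 and 5 genes tested at the high dose and 4, 6, 7, 3 and 7 at the low dose. Supt16 and Ssrp1, the subunits of the FACT histone chaperone that curaxins trap on chromatin, were at 24.1, 28.5 and 16.4 CPM and at 11.4, 10.0 and 16.4 CPM, with intervals that overlapped. Mdm2, a p53 target, was at 43.8, 49.3 and 51.3 CPM, and Zbp1, the Z-nucleic acid sensor, at 10.1, 5.40 and 12.3 CPM on 23, 14 and 6 UMIs. At this depth a difference in these genes was not detectable. Tertiary granule genes had 0 of 10 past 2-fold at the high dose (median -0.08) and 0 of 11 at the low dose (0.06), and primary granule genes 0 of 5 at either dose (0.20 and -0.21). Of these 5 Prtn3 and Ms4a3 are held low by the cap, and Ctsc, Serpinb1a and Srgn, outside it, had ratios of 0.20, 0.062 and 0.51 at the high and -0.30, -0.21 and 0.68 at the low dose. Of 15 transcription factors 2 were at least 2-fold lower at the high dose (Jun and Nfil3; median -0.14), and of 16 at the low dose 1 was (Jun; 0.01). Of 23 mature neutrophil genes 4 were at least 2-fold lower (among them Il1b, the chemokine gene Ccl6 and the adhesion receptor gene Cd84, with 3, 1 and 5 high dose UMIs) and 1 higher (Ifitm1) at the high dose (median -0.05), beside 2.6% of all genes lower, and of 25 at the low dose 1 was higher (0.04). Of 10 genes of marrow retention and egress 2 were 2-fold lower at the high dose (Fcnb among them, though not without the cap; median -0.34) and 0 of 11 at the low dose (0.14). In the list of suppressive genes 1 of 6 (Cd14) was 2-fold lower at the high dose (median 0.04) and 0 of 6 at the low dose (0.01). Wfdc17, which that list holds, was at 3288, 2534 and 3629 CPM.

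The same rule was applied to the library labelled spleen, whose hashtags mark the same 3 treatments. It gave 87 members of 872 neutrophils, 25 vehicle, 41 low dose and 21 high dose cells, with a score threshold of 3.83%. Their share of the neutrophils was 11.1% in the vehicle (7.29 to 15.9%), 8.33% at the low dose (6.05 to 11.1%) and 13.6% at the high dose (8.64 to 20.1%), again with overlapping intervals. Bins 1 to 5 held 55.3, 57.5 and 18.8% of the groups' neutrophils. The members of this library were shallower, with medians of 14696, 14378 and 15463 UMIs. A 2-fold ratio was reached by 29 of 901 genes for high dose against vehicle (3.22%) and by 35 of 1245 for low dose against vehicle (2.81%). It is unknown here whether the cells of both libraries came from the same mice.

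A total of 60 named genes had at least 100 UMIs over the high dose and vehicle members of each library. Of these, 33 had a high dose ratio of the same sign in both libraries, so the signs matched little more often than they differed. Ifitm1 was at 2447 CPM in vehicle, 769 in low dose and 5091 in high dose members of the library labelled spleen, log2 ratios of 1.06 (0.93 to 1.18) and -1.67 (-1.84 to -1.50). Fdps had a high dose ratio of 0.82 (0.29 to 1.37), Ly6e of 0.96 (0.26 to 1.68), Camp of -0.56 (-0.62 to -0.50) and Retnlg of -0.84 (-1.05 to -0.63). The low dose ratio of Ly6e was 0.0052 (-0.67 to 0.71) there, beside 1.01 in the library labelled liver. Lcn2 and Ltf had high dose ratios of 0.25 (0.20 to 0.31) and 0.16 (0.084 to 0.24) there, above 0 where those of the library labelled liver were below it, and the low dose ratio of Camp was -0.12 (-0.16 to -0.073) beside 0.28. Olfm4 was found in 1 vehicle, 7 low dose and 1 high dose cell, and its high dose ratio was -0.27 (-0.82 to 0.27). Its low dose ratio was 1.75 (1.39 to 2.12), on 426 low dose and 75 vehicle UMIs. Ly6g was at 1000 CPM in vehicle and 1104 in high dose members, a ratio of 0.14 (-0.08 to 0.37), so it was not below the vehicle there. Jun had a ratio of -0.27 (-0.87 to 0.32) and Saa3 had 4 vehicle UMIs, too few to compare. Of 80 ribosomal protein genes 2 were above the vehicle at the low dose (median -0.40), and of 13 cell cycle genes 12 were (median 0.80), beside 46.1% of the 1245 genes tested (median -0.041). At the high dose 0 of 4 cell cycle genes were above the vehicle (median -1.21), beside 61.6% of the 901 genes tested (median 0.10).

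**Figure D5:**
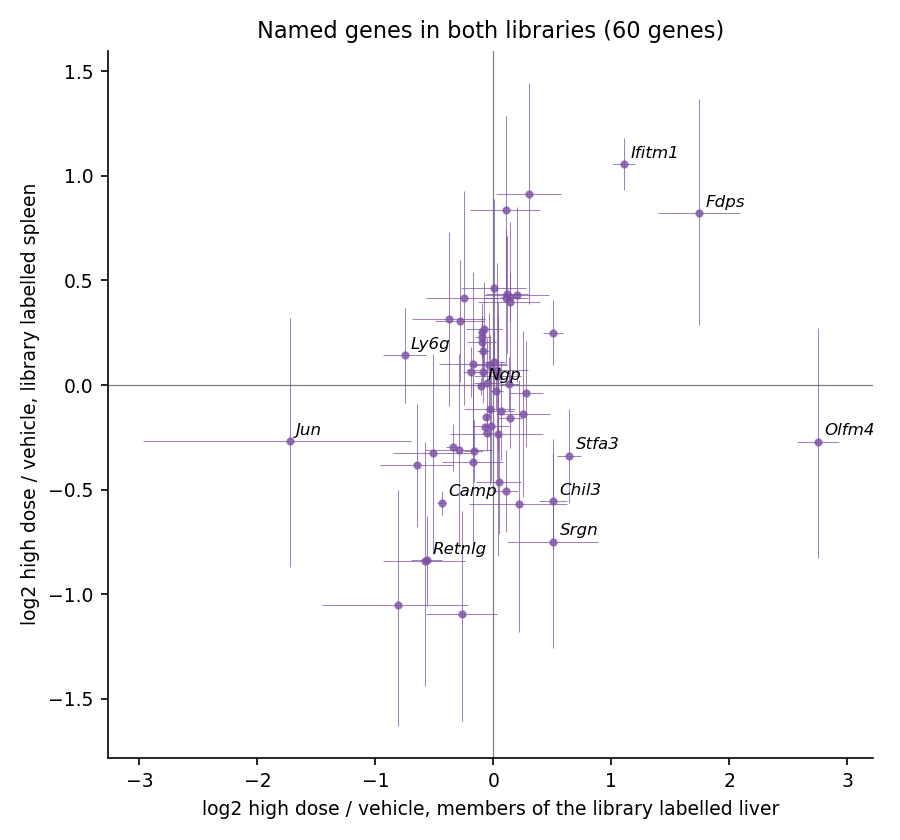
Log2 ratio of high dose to vehicle in the members of the library labelled liver (x axis) and of the library labelled spleen (y axis) for 60 named genes, with 95% counting intervals. These genes had at least 100 UMIs over the high dose and vehicle members of each library. The sign is the same in both for 33 of them, little more often than it differs. Ifitm1 and Fdps are above 0 in both libraries and Camp and Retnlg below 0 in both, among others. Olfm4 is above 0 on the x axis and its interval spans 0 on the y axis.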

How the data were processed

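The authors ran Cell Ranger on 10x libraries with hashtag antibodies, and deposited filtered matrices of whole-number UMI counts of genes and hashtags; the submitters' notes name Cell Ranger 6.0.0, Seurat and mm10, and the matrix headers name 5.0.0. Counts were used as deposited, with no further cell filter, no doublet caller and barcodes without a single dominant hashtag left out. UMIs were summed over the members of a group and given as CPM. Intervals are 95% and exact (Poisson for levels, Clopper-Pearson for shares, conditional binomial for ratios). Each group is 1 pool, so no test was made and a call is a ratio of at least 2-fold. Genes tested had at least 50 UMIs over the groups compared. Genes named are those of the lists with at least 50 UMIs in the members, the 10 highest and 10 lowest ratios per dose among genes with at least 100 UMIs (leaving out mitochondrial, ribosomal protein, haemoglobin and immunoglobulin genes) and the 10 highest ratios of members to other neutrophils among genes with at least 500; some of these genes are not reported here. Members and lists were chosen with earlier results of these data known. Gene positions are from GENCODE M21, in which 32235 of 32285 identifiers were found. Alternatives changed the hashtag calls (HTODemux of Seurat 5.3.0 in R 4.3.3), neutrophil rule, score, depth and filters. The scripts ran in Python 3.11.15 with scipy 1.17.1, and were tested on simulated data.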

Additional observations from a re-analysis of the deposited data

Results flagged for a closer look

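The genes looked at here had at least 100 UMIs over the groups compared in each library. For high dose against vehicle these were 60 named genes, of which 33 had ratios of the same sign in both libraries, whatever their intervals. Of the 60, 9 had ratios of high dose to vehicle on opposite sides of 0 in the members, with intervals that left out 0 in both. The difference was not tested. The 9 genes were Chil3, Srgn, Stfa3, Fth1, Hmgb2, Lcn2, Ltf, Malat1 and Mmp9. The log2 ratio of Chil3 was 0.51 in the library labelled liver, against -0.55 in the one labelled spleen. That of Srgn, the granule proteoglycan serglycin, was 0.51 and -0.75. That of Stfa3, a stefin A protease inhibitor, was 0.64 and -0.34. In the same order the log2 ratios were -0.094 and 0.25 for Lcn2, -0.087 and 0.16 for Ltf, -0.28 and 0.31 for Mmp9, 0.11 and -0.50 for Hmgb2, 0.14 and -0.16 for Fth1, and -0.093 and 0.23 for Malat1. At the low dose 5 genes were on opposite sides of 0, and their ratios were 0.28 and -0.12 for Camp, 0.13 and -0.23 for Malat1, 0.16 and -0.36 for Mxd1, and -0.0071 and 0.027 for S100a9. The fifth, Hbb-bs, a beta globin, had log2 ratios of 0.80 and -6.04, also not tested, and 1 vehicle member of the library labelled spleen held 468 of the 486 erythroid UMIs found in its members. Among the 177 neutrophils without a hashtag call, which no comparison used, 12 were over the score threshold of the members.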

How the results depend on the processing

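No paired analysis was possible because each group is 1 pool per library and the labels number no replicates. Of the main results under the alternatives, 52 values stayed and 15 moved. Of the other values 543 stayed, 298 moved and 28 reversed. A value stayed where it lay inside the counting interval of the unchanged analysis. Counts of 2-fold genes and medians of gene lists have no such interval. They stayed where they lay within 1.5-fold of the unchanged value, for medians also with the same sign. HTODemux calls gave 230 members, of which 223 were among the 241. Leaving out the richest cell of a gene or of the cell cycle list and leaving out members with markers of other lineages were chosen after seeing the data. The cause of these changes was not tested. The share of members was 4.41% (vehicle), 5.96% (low) and 2.25% (high) for the highest 5% of the score and 18.1, 20.2 and 30.3% for the highest 20%. The count of 2-fold genes at the high dose was 201 for the highest 5%, 240 without the progenitor cap, 522 with at least 20 UMIs and 9 with at least 200 UMIs, and at the low dose 255 and 4 with at least 20 and 200 UMIs. The log2 ratio of Lcn2 to other neutrophils was 1.46 without the rule genes in the CPM, 1.36 in vehicle cells and 0.64 in high dose cells, where that of Ly6g was -0.66. Reversed values are those whose interval left out 0 before the change; others also changed sign, such as Mmp8 at the high dose (-3.21 to 0.46 over the alternatives, 3 of 15 above 0) and the high dose median of the cell cycle list (-0.24 for the highest 20%, -0.011 with S100a8 and S100a9 at least 5%, and -0.11 and -0.076 without the richest cells). Log2 ratios that reversed at the high dose were, for the highest 5%, Ifitm1 -0.56, Jun 0.10, Ltf 0.0024, Chil3 -1.72, Cd74 1.24, Stfa2 -0.71, Stfa3 -0.10 and Wfdc17 -0.55. Without the cap they were Ngp 0.071, Lcn2 0.10, Cebpe 0.31, Stfa2 -0.65 and Stfa3 -0.77. For the highest 20% they were Lcn2 0.012 and Mki67 -0.068. Chil3 was -0.038 after thinning, Stfa2 -0.013 with S100a8 and S100a9 at least 20%, Wfdc17 -0.20 with both genes left out of the total, Mki67 -0.17 and Wfdc17 -0.030 without the richest cell, and Cd74 0.073 without members with other markers. At the low dose Lcn2 was -0.060, Stfa3 0.056 and Cd74 0.044 for the highest 5%, Lcn2 -0.017 without the cap, and Lcn2 -0.020 and Stfa3 0.057 with S100a8 and S100a9 at least 20%. Over the alternatives the high dose ratio was 1.27 to 8.58 for Olfm4 (0.34 to 6.07 at the low dose), 1.32 to 2.62 for Ly6e, 0.99 to 2.14 for Fdps and -0.68 to -0.28 for Camp. The 18 high dose members limit every high dose value.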
